A study of Mus musculus with 16 samples.

Results

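Single-exon annotated isoforms are transcripts that the annotation draws as 1 uninterrupted exon, so that no splice junction shows that a read came from a processed RNA. Members were chosen by their annotation and by their reads: isoforms and genes both classed as known, 1 exon, at least 10 reads over the 16 samples, and no mitochondrial gene. These criteria gave 1406 isoforms of 1384 genes, out of 5729 known single-exon isoforms listed and 815498 isoforms of all classes. A further 4292 non-mitochondrial single-exon isoforms lay under the read minimum. The members just inside it numbered 155 with 10 or 11 reads, and 204 isoforms just outside it had 8 or 9 reads. Members held 492743 reads, 5.08% of the 9697336 reads on isoforms of known genes that are annotated, stop short of an annotated isoform (ISM) or join known or new splice sites (NIC and NNC), called kept reads from here on.

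Transcripts without introns come from several sources. Some coding genes have no introns, among them many histones, many G protein coupled receptors, the beta (Pcdhb) genes of the clustered protocadherins and the JUN family of transcription factors. Processed pseudogenes arose when a spliced mRNA was copied back into the genome, so they carry the exons of the parent gene fused together, and ribosomal protein genes and Gapdh are known for many such copies. Retained-intron transcripts in the annotation are stretches of a spliced gene in which an intron has not been removed, and long noncoding RNAs such as Malat1 stay in the nucleus.

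Brain RNA was read by PacBio Iso-seq, in which whole cDNA molecules are sequenced from end to end and reads without a poly(A) tail are discarded. Cortex and striatum were taken from R6/2 and non-transgenic (NT) animals, with 4 samples in each of the 4 groups. R6/2 mice express exon 1 of human HTT with an expanded CAG repeat from the human promoter and serve as a model of Huntington's disease, and NT mice lack this transgene. All animals were males aged 3 months on the B6CBA background, and the left hemisphere was used. The human transgene was not analysed here. Samples are named below by region, genotype and number. Whether samples with the same number come from the same mouse is not stated in the labels.

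Reads of all classes ranged from 252885 to 808814 per sample in the cortex and from 317050 to 1496196 in the striatum, and between 743 and 1231 members had a read in a sample. Striatal NT 1, NT 2, R6/2 2 and R6/2 3 were deposited as 2 count tables each, which were summed, and the other 4 striatal samples as 1 table. The 1-table striatal samples stood apart: their reads lay on isoforms of 1620 to 1886 bases on average, against 2142 to 2225 bases in the 2-table striatal samples and 1851 to 2101 bases in the cortex. Reads of mitochondrial genes made up 1.42% to 3.28% of kept reads in the 1-table striatal samples, 0.408% to 0.852% in the 2-table samples and 0.332% to 0.575% in the cortex. The number of tables was therefore a term in the striatal and the region tests. Levels are in CPM, read counts divided by the library size that TMM scaling in edgeR gave. Markers of striatal projection neurons summed to 10025 to 14061 CPM in NT striatum, 2308 to 3285 CPM in R6/2 striatum and at most 442 CPM in the cortex. The 8 markers of cortical excitatory neurons separated the regions less, with sums of 250.3 to 799.9 CPM in the cortex and 168 to 614 CPM in the striatum. In bulk tissue, fewer cells of a type and less RNA per cell cannot be told apart.

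Pseudogenes were the largest source of member reads. The 270 pseudogene isoforms held 55.2% of them, at a median length of 525.5 bases and a median of 100% of their own gene's reads. Isoforms of the 292 coding 1-exon genes held 18.8% and the 131 long noncoding isoforms 16.2%. The 83 coding single-exon isoforms of genes that also have spliced isoforms held 5.04%, with a median of 74.5% of the gene's reads. Retained introns were the most numerous kind, with 372 isoforms, yet held 2.94% of member reads and a median of 7.55% of the reads of their gene. The 164 TEC isoforms, a class for loci that still await experimental evidence, held 1.01%, and the 70 small RNA isoforms 0.604%. Of the small RNA isoforms, 40 overlapped an exon of another gene, so their reads may belong to the longer transcript. The remaining 11 isoforms were other transcripts of coding genes, and 13 were not found as 1 exon in GENCODE M21, which stood in for the authors' annotation.

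**Figure D1:**
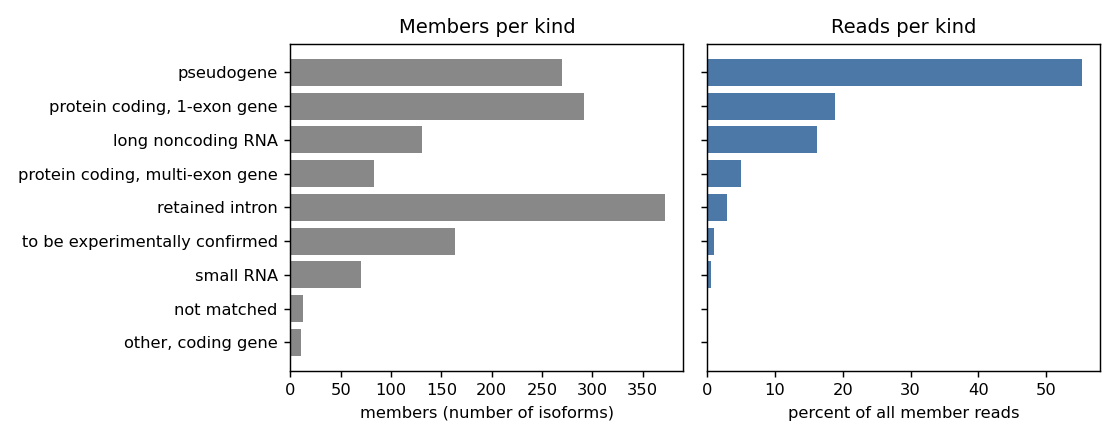
The left bars count member isoforms of each kind and the right bars give the percent of all member reads that fall on that kind, both axes starting at 0. Retained introns are the longest bar on the left with 372 isoforms, while pseudogenes take 55.2% of the reads on the right.

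Reads were concentrated on few isoforms. The median member had 28 reads, 337 members had at least 100 and 59 at least 1000. The first 3 members held 32.2% of member reads and the first 10 held 50.7%. The Hspa8 pseudogene Gm15459 led with 66764 reads, followed by Malat1, an abundant nuclear RNA of nuclear speckles, with 61252 reads. Next came the Rpl3 pseudogene Rpl3-ps1 with 30816 reads, the Gapdh pseudogene Gm13394 with 19038, Gm10123 of the Ppia family with 17754 and the Rps2 pseudogene Rps2-ps10 with 17581. A second Gapdh copy, Gm5559, had 10737 reads, Rpl10-ps3 had 9328, the noncoding Gm42418 had 9234 and Ndn, an imprinted coding gene without introns, had 7311. In all, 7 of these 10 were copies of a spliced gene.

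Lengths ran from 53 to 84395 bases, with a median of 1788.5 bases against 2227 bases in known spliced isoforms. The longest was Kcnq1ot1, a nuclear RNA of the imprinted Kcnq1 locus, with 398 reads. It was followed by the TEC isoform 9330162G02Rik of 30942 bases with 395 reads and by Neat1, the RNA that builds paraspeckles, of 20771 bases with 27 reads. Retained introns of Ube2d3 (19300 bases, 30 reads) and Amn1 (15841 bases, 67 reads) came next. Reads were assigned by TALON, so these lengths are those of the annotated isoforms and not of the reads.

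The ends of the isoforms differed by kind. The poly(A) signals AATAAA or ATTAAA were searched on the transcript strand in the last 50 bases of each annotated sequence. One or the other stood there in 70.5% of coding 1-exon genes, 71.1% of coding single-exon isoforms of spliced genes and 62.6% of long noncoding isoforms, against 68.9% of 14896 known spliced isoforms. The share was 22.8% in retained introns, 29.3% in TEC isoforms, 2.86% in small RNAs and 4.81% in pseudogenes. Isoforms lacking either word at the annotated end thus made up most retained introns and nearly all pseudogenes, though every read had passed the poly(A) filter.

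Near-identical copies of spliced genes were the main feature of the most-read members. Of the 1406 members, 257 matched a spliced transcript of another gene elsewhere in the genome with at least 95% identity over at least 90% of their length, and 69 of these matched it base for base. They came from 176 parent genes, 230 of them were pseudogenes, and together they held 57.2% of member reads. Copies of ribosomal protein genes numbered 116 and held 143547 reads. A read of such a sequence may have been made from either locus, so the level of a copy and of its parent is uncertain.

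The bases that distinguish a copy from its parent, where there are any, are few, and examples are shown here. What decided the assignment of a read to a copy or to its parent was not tested. Each line gives 25 bases, 5′ to 3′, from GENCODE M21 transcripts on GRCm38/mm10, with the differing base in capitals. Positions are counted from 1 at the first base of the parent transcript, and the substitution gives the parent's base first.
Rpl3: cttcctgcctcgCaagcgcagcagc
Rpl3-ps1: cttcctgcctcgAaagcgcagcagc
Hspa8: taaccgcaccacGccaagctatgtt
Gm15459: taaccgcaccacAccaagctatgtt
Gapdh: ggtggagccaaaAgggtcatcatct
Gm13394: ggtggagccaaaCgggtcatcatct
Gapdh: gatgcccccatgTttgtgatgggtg
Gm5559: gatgcccccatgAttgtgatgggtg
Rpsa: cttgacgtcctgCagatgaaggagg
Rpsa-ps10: cttgacgtcctgAagatgaaggagg
Rps3a1: agtgagccttgcTgatctacagaat
Rps3a3: agtgagccttgcCgatctacagaat

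Rpl3, a protein of the large ribosomal subunit, lies at chr15:80082517-80082541 (minus strand, exon 2) in this window, and Rpl3-ps1 at chrX:13202616-13202640 (plus strand). They differ by C137A, 1 of 2 differences over 1210 aligned bases. Hspa8, a constitutive heat shock chaperone, lies at chr9:40802024-40802048 (plus strand, exon 2) and Gm15459 at chr5:5783430-5783454 (minus strand), with G484A as 1 of 5 differences over 1941 bases. Gapdh, an enzyme of glycolysis, differs from Gm13394 (chr2:28934252-28934276, minus strand) only by A438C over 1000 bases, and from Gm5559 (chr5:95862086-95862110, plus strand) only by T477A over 1002 bases. Both Gapdh windows lie in exon 4, at chr6:125163004-125163028 and chr6:125162965-125162989 on the minus strand. Rpsa, a protein of the small ribosomal subunit, lies at chr9:120128502-120128526 (plus strand, exon 2) and Rpsa-ps10 at chr3:150073506-150073530 (minus strand), with C200A as 1 of 6 differences over 885 bases. Rps3a1, also of the small subunit, lies at chr3:86141365-86141389 (minus strand, exon 3) and Rps3a3 at chr13:108670806-108670830 (plus strand), with T349C as 1 of 9 differences over 795 bases. All of these differences but 1, in the Rps3a3 pair, lie in the parent's coding sequence with a window of 25 bases around them inside it. Whether that 1 lies close to an end of the coding sequence or outside it was not determined.

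Some copies held more reads than the gene they match. This was so for 25 members. In the Gapdh family, 9 copies held 35511 reads while the spliced Gapdh gene held 200, so 99.4% of the family's reads stood on copies. Copies held 97.8% of the reads of the Rpl21 family, 96.1% of the Rpl10 family and 92.7% of the Rpl35a family. Shares were lower in the Rpl3 family (59.2%), the Ppia family (57.5%) and the Hspa8 family (37.0%). A further 8 members were near-identical to mitochondrial genes, led by Gm28437, which matches mt-Co3 and had 2284 reads, and Gm10925, which matches mt-Atp6 and had 1751.

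The share of a family's reads on its copy jumped between samples of 1 group. The copies described next were chosen after their cortical shares were seen, so these shares are a description. Among 201 copies with at least 20 family reads in every cortical sample, 18 had a share under 10% of their highest cortical share in at least 1 cortical sample and over 50% of it in another. Rpl3-ps1 took 99.2% of the reads of the Rpl3 family in cortical NT 1, 0.125% in NT 2 (3 reads of 2407), 42.4% in NT 3 and 44.0% in NT 4. In cortical R6/2 samples 1 to 4 its share was 99.3%, 99.3%, 99.2% and 0.224%. The values fell near 0, near 43% or near 99%, and both genotypes held samples at both ends.

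The striatal samples of the same number gave similar shares of Rpl3-ps1. They were 99.1%, 0.603%, 47.4% and 46.2% in striatal NT 1 to 4 and 98.7%, 99.2%, 99.1% and 2.91% in striatal R6/2 1 to 4. The widest 95% Wilson interval of any of these 16 shares spanned 6.18 percentage points, which covers counting error only. Each of the 6 cortical samples at an end of the range thus had a striatal sample of its number at the same end.

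Gm15459 took between 28.0% and 32.5% of the reads of the Hspa8 family in 6 cortical samples, 0.0545% in cortical NT 2 (5 reads of 9177) and 98.1% in cortical R6/2 2. In the striatum it took 0.0531% in NT 2 and 98.4% in R6/2 2, and between 20.6% and 30.0% in the other 6 samples. Rpsa-ps10 took 91.9% of the Rpsa family in cortical NT 2, 92.9% in cortical NT 3 and at most 0.347% in the other 6 cortical samples. Its striatal shares were 98.0% in NT 2, 93.1% in NT 3 and at most 0.851% elsewhere. Rps3a3 took 92.2% and 93.6% in cortical NT 1 and NT 2, 35.8%, 33.7% and 34.6% in cortical NT 4, R6/2 1 and R6/2 2, and had no read in cortical NT 3, R6/2 3 and R6/2 4. The 308 family reads of cortical NT 3 allow a share of up to 0.974% there. In the striatum Rps3a3 had no read in the samples with the same 3 labels, NT 3, R6/2 3 and R6/2 4, and took 94.0% and 94.8% in NT 1 and NT 2.

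Other copies did not keep the side of their numbered sample. Gm15487 took 95.7% to 97.2% of the Atp6v0c family in cortical NT 3, NT 4, R6/2 1 and R6/2 4 but 1.45% to 2.62% in the striatal samples of these numbers. All 4 of these striatal samples had 1 count table. The Gapdh copy Gm13394 took 91.9% and 94.2% in cortical R6/2 1 and R6/2 2, while the striatal shares were 5.67% in R6/2 1 and 98.1% in R6/2 2. Over the 18 copies, 103 cortical shares were under 10% or over 50% of the copy's highest cortical share. Striatal shares were judged likewise against the copy's highest striatal share. The striatal sample of the same number lay on the same side in 74 and on the opposite side in 13. These comparisons are not independent: Gm13394, Gm5559, Gm12033 and Gm12671 share the Gapdh family, and Gm10240 and Gm13370 the Rpl21 family. Some families were shallow, as that of Gm11578 with 17 to 49 reads per sample and Wilson intervals of up to 37.7 percentage points. The number of count tables, region and sample all vary over these comparisons, and their part was not tested.

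**Figure D2:**
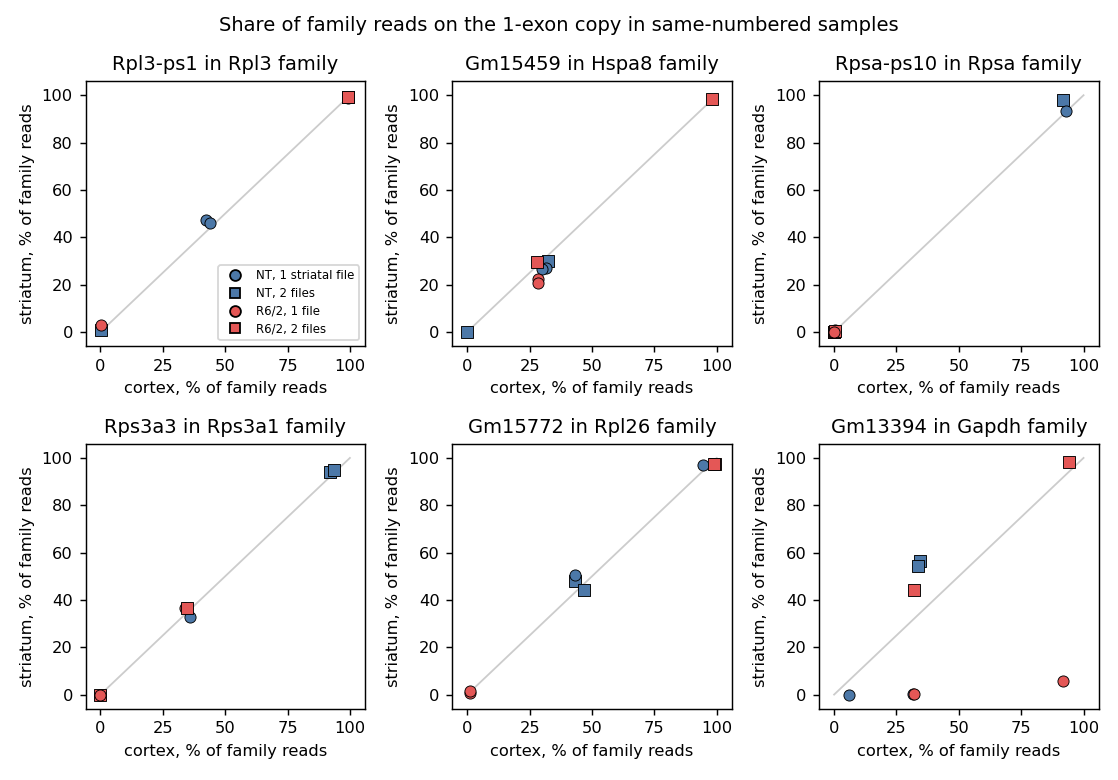
Each panel plots, for 1 copy, the percent of the family's reads on the copy in a cortical sample (x) and in the striatal sample with the same genotype and number (y), blue for NT and red for R6/2, circles where the striatal sample had 1 count table and squares where it had 2. Points of Rpl3-ps1 lie near 0, 43 to 47 and 99% on both axes, while points of Gm13394 leave the grey line of equality.

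No member with a near-identical spliced copy was called by genotype, out of 65 tested in the cortex and 103 in the striatum, where 7 and 1 had an unadjusted p under 0.05 in edgeR's quasi-likelihood test. Of all isoforms tested, 2.83% were called in the cortex and 3.76% in the striatum. In the same test the log2 fold change of Rpl3-ps1 in R6/2 against NT was 0.59 (SE 1.08, adjusted p = 0.850) in the cortex and 0.64 (SE 0.996, adjusted p = 0.818) in the striatum. For Gm15459 it was 1.47 (SE 0.85, adjusted p = 0.424) in the cortex and 1.43 (SE 1.08, adjusted p = 0.564) in the striatum. When the reads of each parent and its copies were summed, of 169 families tested in the cortex 1 was called higher in R6/2 and 0 lower, and of 171 in the striatum 0 were higher and 1 lower.

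The share of all kept reads that fell on members was compared by exact two-sided permutation tests over samples, adjusted over 6 tests. Members of genes with only 1-exon isoforms took 3.35% ± 0.53 (SD, n = 4) of kept reads in NT cortex and 4.33% ± 1.07 (SD, n = 4) in R6/2 cortex (exact p = 0.229). In the striatum they took 3.93% ± 1.31 in NT and 4.68% ± 1.03 in R6/2 (exact p = 0.343, and 0.389 when samples were permuted only among those with the same number of tables). Members of genes that also have spliced isoforms took 0.995% ± 0.107 in NT and 0.972% ± 0.088 in R6/2 cortex (exact p = 0.686). In the striatum they took 1.80% ± 0.97 in NT and 1.09% ± 0.44 in R6/2 (exact p = 0.286, and 0.0556 within the number of tables, the smallest p that 36 arrangements allow). Between regions the shares were 3.84% in cortex and 4.30% in striatum for the first class (permutation p = 0.401) and 0.984% and 1.44% for the second (permutation p = 0.133). The adjusted p was 0.481 for 5 of the tests and 0.686 for that in the cortex of the second class, so no share differed past the threshold of 0.05. The 70 arrangements of a genotype test allow no exact permutation p under 0.0286. A single genotype test at that limit would not pass after adjustment over 6 tests, so these tests could hardly show a difference. Single members set much of these differences. Without Gm15459 the R6/2 minus NT difference of the first class fell from 0.975 to 0.219 percentage points in the cortex and from 0.748 to 0.0611 in the striatum. Without Malat1 that of the second class in the striatum went from -0.704 to -0.0508. Single samples moved them as well: with 1 sample left out, the difference of the first class ran from 0.486 (without R6/2 2) to 1.26 in the cortex and from 0.236 (without NT 2) to 1.26 (without NT 4) in the striatum. That of the second class in the striatum ran from -1.01 (without NT 1) to -0.326 (without NT 4).

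The number of tables separated the striatal samples for long noncoding and retained-intron members. Long noncoding members took 1.05% to 2.52% of kept reads in 1-table striatal samples, 0.477% to 0.826% in 2-table samples and 0.518% to 0.898% in the cortex. Retained introns took 0.156% to 0.280% in 1-table striatal samples, 0.109% to 0.128% in 2-table samples and 0.136% to 0.178% in the cortex. Coding 1-exon genes were steady, between 0.867% and 1.11% in all 16 samples. Pseudogenes spread from 1.39% to 4.84%, and the lowest and the highest sample were both 2-table striatal samples.

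**Figure D3:**
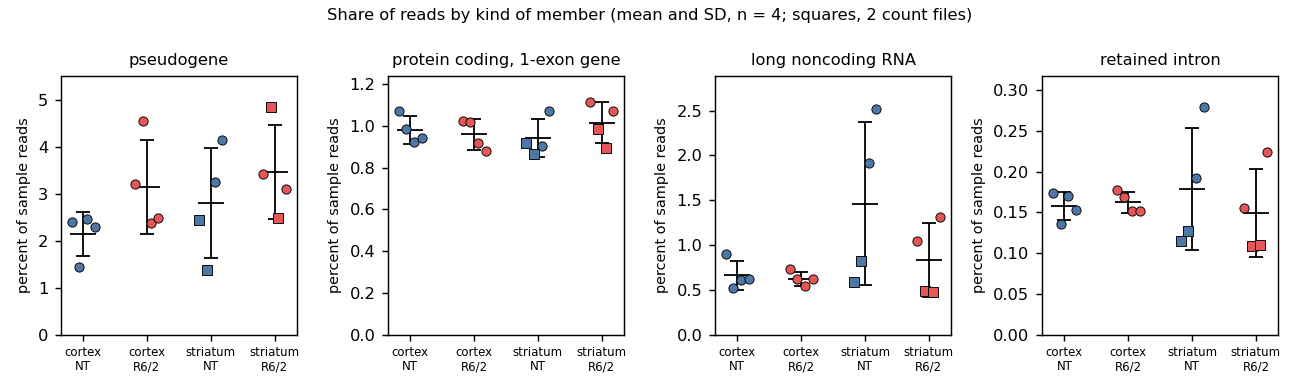
Each panel gives the percent of a sample's kept reads on 1 kind of member, with 1 point per sample, squares for samples of 2 count tables, and the mean and SD of the 4 samples of a group. Long noncoding and retained-intron circles lie above the squares in the striatum, and coding 1-exon genes stay between 0.867% and 1.11%.

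In the cortex, members that differed between genotypes were lower in R6/2. The fit covered 5376 isoforms, of which 133 (2.47%) were called lower, and 208 members passed its filter on low counts. Among these, 5 were called lower and 0 higher, and 35 had an unadjusted p under 0.05. Their median log2 fold change was 0.07, against 0.01 over all isoforms tested. The share of members called lower was near that of all isoforms. Marker sums moved with genotype too: the 8 cortical excitatory neuron markers summed to 412 to 799.9 CPM in NT and 250.3 to 374 CPM in R6/2 cortex. The 6 astrocyte markers summed to 1935 to 3231 CPM in NT and 1211 to 1618 CPM in R6/2 cortex. Neither sum overlapped between genotypes, and their part in these calls was not tested.

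Junb, a subunit of the AP-1 transcription factor, stood at 148, 185, 296 and 443 CPM in cortical NT 1 to 4 and at 71.9, 105, 79.8 and 110.3 CPM in cortical R6/2 1 to 4. All 4 R6/2 values lay below the lowest NT value, with a log2 fold change of -1.56 (SE 0.30, edgeR adjusted p = 0.00913). The related AP-1 subunit Jund had 129.9, 102, 42.9 and 62.8 CPM in NT and 38.6, 42.1, 32.9 and 27.6 CPM in R6/2, so the lowest NT sample lay just above the highest R6/2 sample. Its log2 fold change was -1.29 (SE 0.30, edgeR adjusted p = 0.0311), and this call was lost in 5 of the 8 fits that left out 1 sample. Ier5, an immediate early gene, had 109.5, 181, 146 and 172 CPM in NT and 64.9, 51.7, 34.2 and 36.1 CPM in R6/2 (log2 fold change -1.72, SE 0.25, edgeR adjusted p = 0.00121).

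Fjx1, a secreted protein of the four-jointed family, had 117, 62.3, 51.5 and 57.3 CPM in cortical NT and 19.3, 23.0, 16.5 and 12.7 CPM in cortical R6/2, without overlap. Its log2 fold change was -2.01 (SE 0.32, edgeR adjusted p = 0.00220). E130012A19Rik, a coding 1-exon gene, had 112, 113, 30.0 and 102 CPM in NT and 19.3, 28.7, 27.9 and 17.0 CPM in R6/2. Here NT 3 lay close to the R6/2 samples, and the log2 fold change was -1.97 (SE 0.33, edgeR adjusted p = 0.00317). With the exception of Junb, whose locus also has a spliced isoform in the annotation, these genes have only 1-exon isoforms, and all 5 single-exon isoforms held 100% of their gene's reads.

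In the striatum, 11 of 296 members tested were called lower in R6/2 and 0 higher, with 36 at an unadjusted p under 0.05. Of all 7453 isoforms tested, 241 (3.23%) were called lower. The median log2 fold change was -0.06 for members and -0.02 for all isoforms. As in the cortex, the share called lower was close to that of all isoforms. Without the number of tables as a term 1 member was called, and from the first tables alone 0.

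Junb again stood lower, at 117, 195, 187 and 195 CPM in striatal NT 1 to 4 and 40.8, 64.3, 61.3 and 51.2 CPM in striatal R6/2 1 to 4. The groups did not overlap, and the log2 fold change was -1.66 (SE 0.23, edgeR adjusted p = 0.00241). Pnmal2, of the paraneoplastic Ma antigen family, had 264, 347, 305 and 258 CPM in NT and 137, 191, 168 and 213 CPM in R6/2 (log2 fold change -0.76, SE 0.19, edgeR adjusted p = 0.0471). Mesdc1, a talin rod domain protein, had 73.1, 96.0, 80.8 and 68.9 CPM in NT and 44.0, 34.7, 50.3 and 25.6 CPM in R6/2 (log2 fold change -1.05, SE 0.23, edgeR adjusted p = 0.0293). Cited4, a coactivator that binds CBP and p300, had 29.8, 31.2, 36.7 and 40.2 CPM in NT and 21.2, 14.3, 10.1 and 19.9 CPM in R6/2 (log2 fold change -1.14, SE 0.26, edgeR adjusted p = 0.0342). When 1 sample was left out, the call of Junb held in all 8 fits, while that of Cited4 was lost in 7 of 8 and those of Mesdc1 and Pnmal2 in 6 of 8 each.

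Among the calls the largest striatal fold change was that of a retained intron. The isoform of Phkg1, the gene of a catalytic subunit of phosphorylase kinase, spans chr5:129877549-129879088 on the minus strand in GRCm38/mm10 and held 74.2% of the reads of its gene. It stood at 19.8, 14.8, 108 and 247 CPM in striatal NT 1 to 4 and at 4.89, 1.02, 0 and 8.54 CPM in striatal R6/2 1 to 4 (log2 fold change -4.71, SE 0.48, edgeR adjusted p = 3.95e-04). NT 3 and NT 4, both of 1 count table, were far above NT 1 and NT 2, and all 4 R6/2 samples lay below the lowest NT sample.

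The other 6 called members overlapped between genotypes in the pooled samples, and 5 of them are given here because of their values. Lrrc10b, a leucine-rich repeat gene, had 19.8, 32.0, 71.6 and 161 CPM in striatal NT and 14.7, 3.06, 8.04 and 34.1 CPM in R6/2 (log2 fold change -2.25, SE 0.40, edgeR adjusted p = 0.0102). Malat1 had 4711, 7279.6, 20632 and 31502 CPM in NT and 8537, 2844, 3393 and 11992 CPM in R6/2 (log2 fold change -1.17, SE 0.22, edgeR adjusted p = 0.0128). The log2 fold change was -1.91 for a long noncoding RNA, -1.53 for Gm42372 and -1.995 for a retained intron of Prkcb, the gene of protein kinase C beta. Phkg1, Lrrc10b and Malat1 were all highest in striatal NT 4, where 4 choroid plexus markers summed to 10711 CPM, against at most 1418 CPM in any other sample. The projection neuron markers were at lower levels in R6/2 striatum, as given above, and the 6 astrocyte markers summed to 2227 to 3758 CPM in NT and 1525 to 1750.2 CPM in R6/2 striatum, without overlap. The part of these markers in the striatal calls was not tested.

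**Figure D4:**
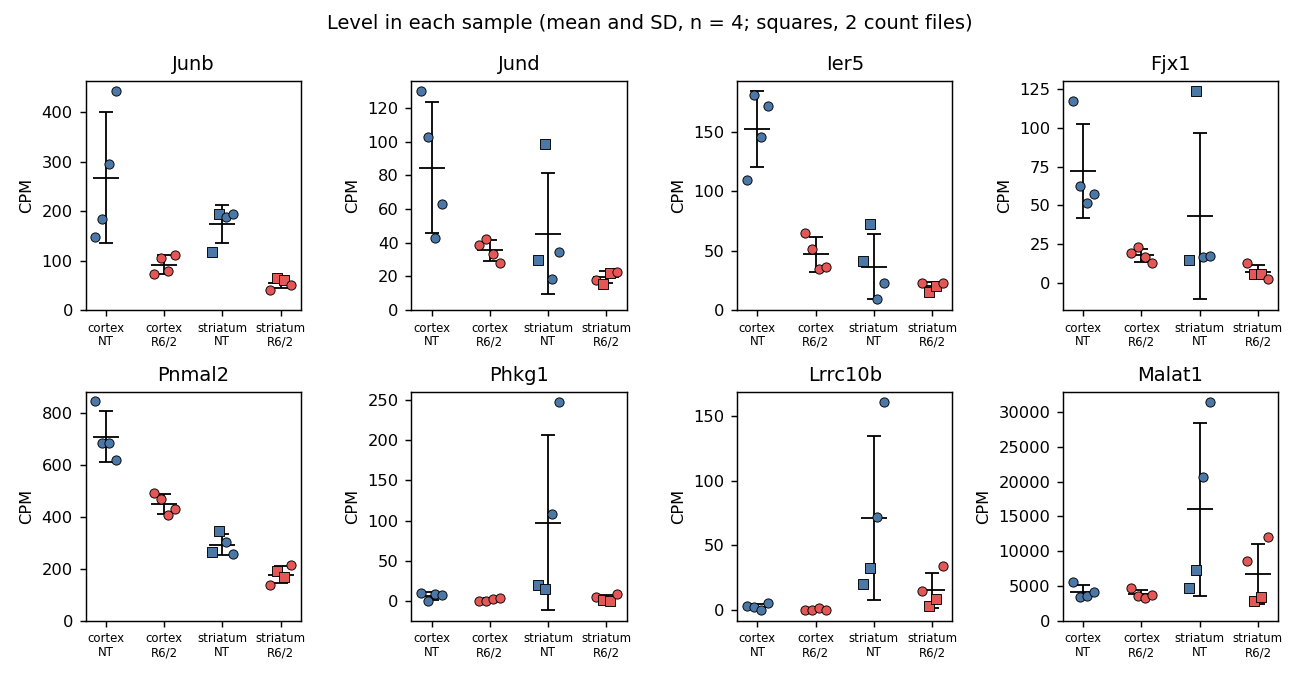
CPM of 8 members in each sample, with blue points for NT, red points for R6/2, squares for samples of 2 count tables, and bars for the mean and SD of 4 samples. NT and R6/2 values of Junb and Pnmal2 do not overlap in either region, though Pnmal2 was called in the striatum only. Striatal Phkg1, Lrrc10b and Malat1 are highest in the 1-table NT samples, up to 247, 161 and 31502 CPM.

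By function, the bZIP and immediate early regulators (11 members, led by Junb, Ier5 and Jun) held 3 of the 5 cortical calls. Of the list, 5 members were tested in the cortex, all with negative fold changes and with a median of -1.29. The uncalled members Jun and Ier2 had log2 fold changes of -0.76 (adjusted p = 0.140) and -0.85 (adjusted p = 0.222) in edgeR's fit. In the striatum 4 were tested, 1 was called lower and the median was -1.13. Replication-dependent histones (18 members) had 4 tested in the cortex and 7 in the striatum, with none called and medians of 0.59 and 0.18. Potassium channels (6 members, led by Kcna1) had 2 and 4 tested, none called, with medians of -0.55 and -0.54.

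G protein coupled receptors, led by Gpr27 with 20 members, had 1 member tested in the cortex and 3 in the striatum, none of them called. The 21 clustered protocadherins, led by Pcdhb9, reached the filter with 1 member in the striatum and none in the cortex, and the heat shock members Hspa1a and Hspb3 in neither. Of the 5 imprinted members, led by Ndn and Nap1l5, 3 were tested in each region and none was called. The 5 nuclear long noncoding RNAs had 2 tested in the cortex with none called, and 3 in the striatum with Malat1 called lower. None of the 69 members of the small structural RNA list or of the 5 nucleic acid binding and small GTPase regulators (led by Rhob) was called. The most-read member of the first list, Gm26917, is classed as a long noncoding RNA by its annotated type.

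Whether the genotype difference itself differed between regions was tested as an interaction. Of 7309 isoforms tested 1 was called (0.0137%), and of 285 members 0 were called by edgeR, with 20 at an unadjusted p under 0.05. DESeq2 also called 0 members. The smallest p among members was that of Malat1, with an interaction of -1.03 on the log2 scale (SE 0.29, edgeR adjusted p = 0.914), followed by Gm42372 at -1.47 (SE 0.43). Retained introns of Ccnd2 and Ank2 had -1.62 (SE 0.54) and -1.30 (SE 0.48). A different response of a member in the 2 regions was therefore not shown.

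Between regions, the result depended on which striatal samples were set against the cortex. With the number of tables as a term, the comparison is of 1-table striatal samples with the cortex, in which every sample had 1 table. Of 7309 isoforms, 2078 (28.4%) were called higher and 1034 (14.1%) lower in the striatum, and of 285 members tested 141 were higher and 41 lower. The median log2 fold change was 0.74 for members and 0.16 for all isoforms. Against the 2-table striatal samples only, 34 of 296 members were higher and 70 lower, with a median of -0.24, where 3507 of 8368 isoforms (41.9%) were called in either direction. Of all these isoforms 1874 (22.4%) were higher and 1633 (19.5%) lower, with a median log2 fold change of -0.02. The median of the members thus had opposite signs in the 2 fits. Scaling moved the zero of the first fit: the median over all isoforms was -0.13 with upper-quartile scaling, -0.01 with DESeq2 and -0.06 with libraries of all classes, and 68.2% to 77.5% of the members called were higher under these scalings and TMM.

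Copies were frequent among the members that turned. Of the 101 members with a near-identical spliced copy tested in the first fit, 78 were higher and 9 lower, whereas in the second 6 of 98 were higher and 24 lower. Members without such a copy were 63 higher and 32 lower of 184, then 28 higher and 46 lower of 198. When the reads of each parent and its copies were summed, with the same terms as the first fit, 132 of 170 families were higher and 5 lower. Their median log2 fold change was 1.24, where 28.4% of all isoforms were higher and 14.1% lower in the first fit. Summed families were not fitted against the 2-table striatal samples. Of 271 members tested in both fits, 71 were called in both, of which 15 were higher in both, 22 lower in both and 34 of opposite sign. A near-identical spliced copy marked 22 of the 34 members of opposite sign and 4 of the 37 of the same sign. How many of all isoforms turned sign between the 2 fits was not counted. Whether turning was more frequent among members than among all isoforms is therefore not known. The members of the same sign also held Gm28437, Gm10925 and Gm28661, which match mitochondrial genes. No member of opposite sign was among those matching a mitochondrial gene. Gm13394 had log2 fold changes of -6.45 and 2.70 in the 2 fits, the Rpl10 copy Rpl10-ps3 1.16 and -0.56, the signal recognition particle RNA Rn7s1 1.98 and -1.18, and the replication-dependent histone gene Hist1h2ao 2.15 and -1.03. Coding genes without a copy turned too, among them Cdk5r2, an activator of CDK5, with 2.32 and -1.23.

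Members that were higher in the striatum in both fits included Ankrd63, Olig1 and Peg13. Ankrd63, an ankyrin repeat gene, was at 0, 2.01, 0 and 1.85 CPM in cortical NT, at 1.75, 3.83, 1.27 and 0 CPM in cortical R6/2, and at 28.6 to 66.1 CPM in the 8 striatal samples, with log2 fold changes of 4.97 (SE 0.39) and 4.45 (SE 0.42). Olig1, a transcription factor of the oligodendrocyte lineage, ranged from 59.6 to 102 CPM in the cortex and from 121 to 256 CPM in the striatum (1.36, SE 0.17, and 1.68, SE 0.16). The whole list of 6 oligodendrocyte markers summed to 3102 to 6802 CPM in the cortex and 14335 to 30085 CPM in the striatum, and its part in the difference of Olig1 was not tested. Peg13, an imprinted noncoding RNA, ranged from 0 to 19.1 CPM in the cortex and from 24.2 to 51.4 CPM in the striatum (1.67, SE 0.32, and 1.34, SE 0.29).

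Sowaha, another ankyrin repeat gene, ranged from 44.5 to 92.4 CPM in the cortex and from 117 to 257 CPM in the striatum (log2 fold changes 1.43, SE 0.17, and 1.37, SE 0.15). H2afx, the histone variant phosphorylated at DNA breaks, ranged from 21.5 to 43.3 CPM and from 56.9 to 97.6 CPM (1.05, SE 0.22, and 1.01, SE 0.21). Pcbp1, a poly(C) binding protein, ranged from 90.1 to 151 CPM and from 159 to 308 CPM (0.70, SE 0.17, and 0.95, SE 0.17). The call of Pcbp1 in the first fit was lost in 3 of the 16 fits that left out 1 sample, those without cortical NT 3 (0.32), striatal NT 3 (0.49) and striatal NT 4 (0.44). These 6 genes were named because no striatal sample lay below the highest cortical sample, so the lack of overlap is a rule of choice and not a result.

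Members that were lower in the striatum in both fits included Rprm, a retained intron of Mef2c, Pnmal2 and 4 early response genes. Rprm, a p53 target whose product arrests the cell cycle, ranged from 73.9 to 96.2 CPM in the cortex and from 8.59 to 34.1 CPM in the striatum (log2 fold changes -2.21, SE 0.29, and -2.34, SE 0.25). The Mef2c intron isoform, from the gene of a neuronal transcription factor, ranged from 15.3 to 37.0 CPM and from 1.56 to 13.3 CPM (-2.08, SE 0.42, and -2.17, SE 0.35). Pnmal2 ranged from 406 to 848 CPM and from 137 to 347 CPM (-1.35, SE 0.17, and -1.28, SE 0.17). Of the bZIP and immediate early list, 5 of 6 members tested were lower in the first fit and 5 of 7 in the second, with none higher in either, where 14.1% of all isoforms were lower in the first and 19.5% in the second. The list's members lower in both were Jun (-1.58 and -1.43), Ier2 (-1.49 and -1.57), Ier5 (-2.10 and -1.40) and Junb (-0.71 and -0.66).

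Malat1 was called higher in the first fit, with a log2 fold change of 2.04, while against the 2-table striatal samples its value was 0.11 (edgeR adjusted p = 0.632). All 6 replication-dependent histones tested were higher in the first fit, with a median of 2.14, whereas in the second 1 of 6 was lower and none higher, with a median of -0.23. Only reads that passed the poly(A) filter were counted. What part of all histone RNA, or of Rn7s1 RNA, they represent is not known. Over all isoforms 28.4% were higher in the first fit, and 22.4% were higher and 19.5% lower in the second. The other 1-exon histones were 1 of 2 higher and then 2 of 2 higher. No G protein coupled receptor of 3 was called in the first fit and 1 of 4 was higher in the second. The small structural RNA list had 2 higher and 2 lower of 4, then 3 lower of 5, and Gm26917, classed as a long noncoding RNA, was lower in both.

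**Figure D5:**
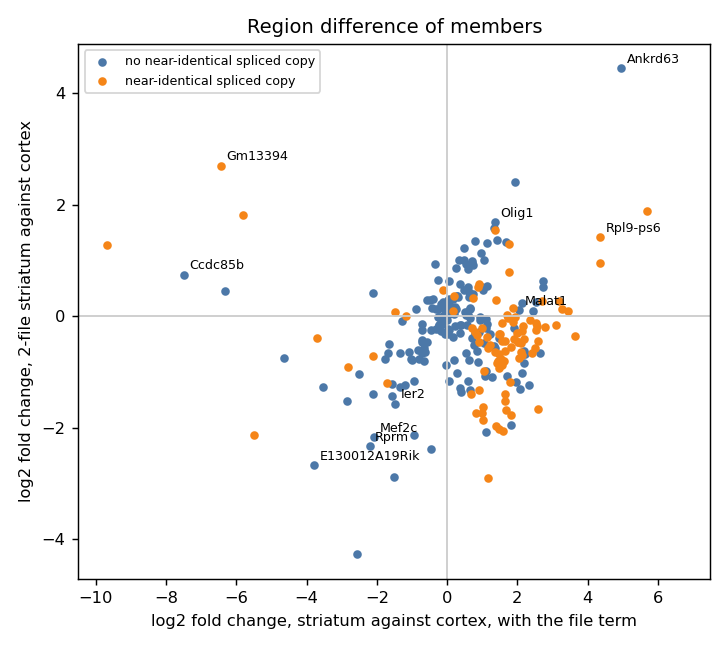
Each point is 1 of 271 members tested in both fits, with the log2 fold change of striatum against cortex with the number of tables as a term on the x axis and against the 2-table striatal samples on the y axis. Orange points, members with a near-identical spliced copy, gather at positive x and negative y, while Ankrd63 (4.97 and 4.45) and Rprm (-2.21 and -2.34) lie in the quadrants of equal sign.

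The share of a gene's reads on its single-exon isoform was tested by edgeR's differential usage test. In the cortex 13 of 19088 isoforms (0.0681%) differed between genotypes, and of 169 members tested 0 were called and 3 had an unadjusted p under 0.05. In the striatum 24 of 28123 isoforms (0.0853%) were called, and of 296 members 0, with 14 at an unadjusted p under 0.05. The retained introns with the smallest p were those of Phf3 (relative log2 change -2.49, adjusted p = 0.780) in the cortex and Lamtor3 (1.99, adjusted p = 0.312) in the striatum. At the depth of these members, a median of 28 reads over 16 samples, a shift in usage could have gone undetected.

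Between regions, 737 of 42843 isoforms (1.72%) differed in usage, and 9 of 440 members, 7 with a higher and 2 with a lower share in the striatum. Of these 9, 8 were retained introns, as were 344 of the 440 members tested. Uba2, the gene of a SUMO-activating enzyme subunit, had a relative log2 change of 4.44 (edgeR adjusted p = 6.58e-04), but its isoform stood at 40.2 CPM in striatal NT 4, 11.4 CPM in striatal R6/2 4 and at most 3.51 CPM in every other sample. The Prkcb intron isoform, at chr7:122633448-122634402 on the plus strand, rose by 1.92 in relative usage and stood at 97.6 CPM in striatal NT 4 and 36.7 CPM in striatal NT 3, with all other samples at most at 17.1 CPM. Pex7, the gene of a peroxisomal import receptor, rose by 4.06 on 17.2 CPM in striatal NT 4. Striatal NT 4 is the sample with the choroid plexus markers named above, and without it 2 of the calls were made. The 2 lower shares were those of Golgb1 (-2.72), the gene of a Golgi protein, and of the intron isoform of Bhlhe40 (-4.71), the gene of a bHLH repressor.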

How the data were processed

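RNA was extracted with TRIzol, treated with a 5′-phosphate-dependent exonuclease and made into Iso-seq libraries. The authors made circular consensus reads, kept full-length poly(A) reads, mapped them to mm10 with minimap2 2.17-r941, applied TranscriptClean and used TALON with an Ensembl annotation to give each read an isoform. The authors deposited counts, the raw number of reads of an isoform before any filter. Age and strain come from the study's text, and sex and groups from the labels. Tables of 1 sample were summed. What the 2 tables of a sample hold beyond raw data of 2 replicates is not given in the sources used here, and nothing in the labels says that samples of a group are separate mice, so p-values measure the spread between samples. Every table row names a gene, and known, ISM, NIC and NNC isoforms of known genes entered the fits. Classes without a defined isoform (genomic, antisense, intergenic) were left out, which kept 9697336 of 11188350 reads.

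Differences were tested with edgeR 4.0.16 (R 4.3.3; TMM, filterByExpr, glmQLFit and glmQLFTest; diffSpliceDGE for usage), with Benjamini-Hochberg adjustment over all isoforms tested and a threshold of 0.05. The cortex and striatum were fitted apart for genotype, and the number of count tables was a term in every striatal, region and interaction fit. CPM are counts scaled to TMM library sizes. Kinds, positions and sequences come from GENCODE M21, which matched 1396 of 1406 members, and near-identical copies were found with blastn 2.17.0. Shares of reads were compared by exact permutation tests. Wilson intervals (95%, scipy 1.17.1) and limits for a count of 0 (3 counts of the total) cover counting error only. Members and lists were chosen with earlier results of these data known. Named are the 10 members with most reads, up to 10 called members in each direction per comparison whose groups did not overlap and whose higher group averaged at least 10 reads, or, where fewer than 3 were called, the 5 with the smallest p, and for usage up to 5 members. Other members are named for their values, and 1 member is not reported here. Scripts were tested on simulated data. Python 3.11.15 and pandas 2.3.3 served the other steps.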

Additional observations from a re-analysis of the deposited data

Results flagged for a closer look

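Of 100 groups of 4 samples examined for the named members, 9 held a sample whose gap to its nearest neighbour took more of the group's range than Dixon's 95% critical value allows, and chance gives about 1 in 20. Gm15459 stood at 22178 CPM in cortical R6/2 2 against 5828 to 7044 CPM in the other 3 samples, and Rpl3-ps1 at 10.6 CPM in cortical R6/2 4 against 4014 to 4486 CPM. Gm42418, a noncoding RNA, stood at 1760 CPM in cortical NT 1 (others 687 to 832 CPM) and at 628 CPM in cortical R6/2 3 (others 918 to 977 CPM). Fjx1 was high in cortical NT 1 at 117 CPM (others 51.5 to 62.3 CPM) and in striatal NT 2 at 123 CPM (others 14.9 to 17.2 CPM). E130012A19Rik was low in cortical NT 3 at 30.0 CPM (others 102 to 113 CPM), Junb was low in striatal NT 1 at 117 CPM (others 187 to 195 CPM), and Gm42372 was high in striatal R6/2 4 at 22.8 CPM (others 6.12 to 8.15 CPM).

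Mitochondrial genes, which were left out of the members, took 3.28% of kept reads in striatal NT 4, the highest share among the 16 samples, whose lowest was 0.332% and median 0.572%.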

How the results depend on the processing

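The count of cortical genotype calls among members (5) was 8 with all isoforms of at least 10 reads, 8 with no filter, 9 with mean isoform length as a term and 9 with copies summed with the parent, and ran from 4 to 8 when 1 sample was left out (8 without cortical NT 1). The striatal count (11) was 26 with at least 10 reads, 7 with no filter, 1 with no term for the number of tables and 0 from the first tables alone. Leaving out 1 sample gave 4 to 16, with 5 without NT 2, 7 without NT 3, 5, 4, 5 and 7 without R6/2 1, 2, 3 and 4. The region count (182) was 89 with no term, 58 from the first tables and 104 against the 2-table striatal samples, and 159 to 210 when 1 sample was left out. The count of usage calls by region (9) was 5 without incomplete-splice-match isoforms, 2 with no term, 1 from the first tables, and 2 to 10 when 1 sample was left out (5 without striatal NT 3, 2 without striatal NT 4, 5 without striatal R6/2 4). The region difference in the share of members of spliced genes, 0.461 percentage points, ran from 0.249 to 0.565 when 1 sample was left out, and the unadjusted permutation p was 0.0420 and 0.0463 without striatal R6/2 2 and R6/2 3. The counts for the interaction and for usage by genotype were 0 in every alternative run. Fewer samples and fewer or more isoforms tested are part of the leave-out and filter alternatives, and the cause of the other shifts was not tested. For the members named from the calls or the smallest p of a comparison, within that comparison, 686 alternatives kept direction and call, 76 kept the direction and lost the call, and 0 reversed. This count does not cover members named for other reasons: against the 2-table striatal samples Gm13394, Rpl10-ps3, Rn7s1, Hist1h2ao and Cdk5r2 turned sign between regions, among the 34 members called with opposite signs. The fits with mean isoform length, with summed copies and with 2-table striatal samples were chosen after seeing the data.

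Replicate numbers were not taken to pair samples. Same-numbered cortical and striatal samples had correlations of their deviations from the group means of -0.132 to 0.277, and 4 of 8 correlated best with their own number. Of the 103 shares of the 18 chosen copies given above, 74 lay on the same side in the same-numbered striatal sample and 13 on the opposite side. Whether the region test's samples are independent is therefore not known. For NT and R6/2 samples of the same number they were -0.0888 to 0.256 in the cortex and -0.369 to 0.149 in the striatum. With a replicate block the counts were 6 (cortex), 6 (striatum), 162 (region), 0 (interaction), 0 and 0 (usage by genotype) and 1 (usage by region), and Mesdc1, Pnmal2 and Cited4 in the striatum were no longer called. Depth limits the members: 510 of the 1406 had under 20 reads, and the filter left 208 to 296 of them in the tests of level.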
